A study of Mus musculus with 4 samples.

Results

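The neural Sox genes are 9 transcription factor genes: *Sox1* and *Sox2* of the SoxB1 group, *Sox21* of SoxB2, *Sox4* and *Sox11* of SoxC, *Sox5* and *Sox6* of SoxD, and *Sox8* and *Sox9* of SoxE. These 9 of 55602 genes of the bulk table were taken by symbol as the Sox factors of neural progenitors, neurons and glia, and all 9 had enough counts to be tested among 19995 genes. RNA was sequenced from 2 wild-type and 2 *Zfp57*-/- cultures of JB1, a hybrid mouse embryonic stem cell line with a JF1 mother and a C57BL/6 (B6) father, and the mutant is a line derived from it. All 4 cultures were grown in defined default medium with 1 µM cyclopamine, an inhibitor of Sonic hedgehog signalling, from day 2 to day 10 and were harvested at day 12 as neural precursor cells (NPCs). Each genotype is 1 line, so genotype and line cannot be told apart, and the p-values measure the spread between 2 biological replicates per genotype.

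Sox proteins bind DNA through a high-mobility-group domain and act with partner factors, often of the POU class, on shared enhancers. SoxB1 factors keep neural progenitors undifferentiated and SoxB2 factors oppose them, SoxC factors act as progenitors become neurons, SoxD factors lack an activation domain of their own and modify the action of other Sox proteins, and SoxE factors act in glia, neural crest and, with SoxD, in cartilage. *Sox2* is also a core gene of pluripotent cells, so that its transcript is not specific to neural cells.

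The libraries held 7663520 to 10337082 assigned fragments, and CPM below are counts scaled to library size with edgeR's TMM factors. *Zfp57* itself had 392 and 249 counts in wild-type against 158 and 144 in *Zfp57*-/- cells. Its JF1 reads were 136 and 99 in wild-type cells but 0 in each mutant library, while its B6 reads were 81 and 49 against 82 and 76. The knockout deletes part of the gene, and the counts cover the whole gene. Markers of neural progenitors were present in all libraries and all 5 were lower in the mutant, while the 6 markers of pluripotent cells were all higher there. The summed CPM of these 6 rose from 3.10 and 7.54 in wild-type to 1013 and 913 in *Zfp57*-/- cells. The part of such cells in the results below was not tested, and in bulk RNA fewer cells of a type and less RNA per cell cannot be told apart.

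In the genotype comparison, 5 of the 9 neural Sox genes were lower in *Zfp57*-/- cells (*Sox1*, *Sox11*, *Sox5*, *Sox4* and *Sox6*), 0 were higher and 4 did not pass an adjusted p of 0.05. Over all genes tested, 27.6% passed in either direction, 14.6% as lower and 2607 of 19995 genes as higher. The median log2 fold change was -0.85 over the 9 genes and -0.01 over all genes. At an unadjusted p under 0.05, 1 gene was higher, *Sox2*, and DESeq2 called 0 higher. The 2 genotypes did not overlap in CPM for 7 of the 9 genes, which was also so for 66.3% of all genes. Changes ran from a 7.72-fold decrease of *Sox1* to a *Sox2* level 1.40 times that of wild-type cells. Leaving out *Zfp57*-/- replicate 1 left 2 genes past the threshold as lower, and leaving out replicate 2 left 3.

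**Figure D1:**
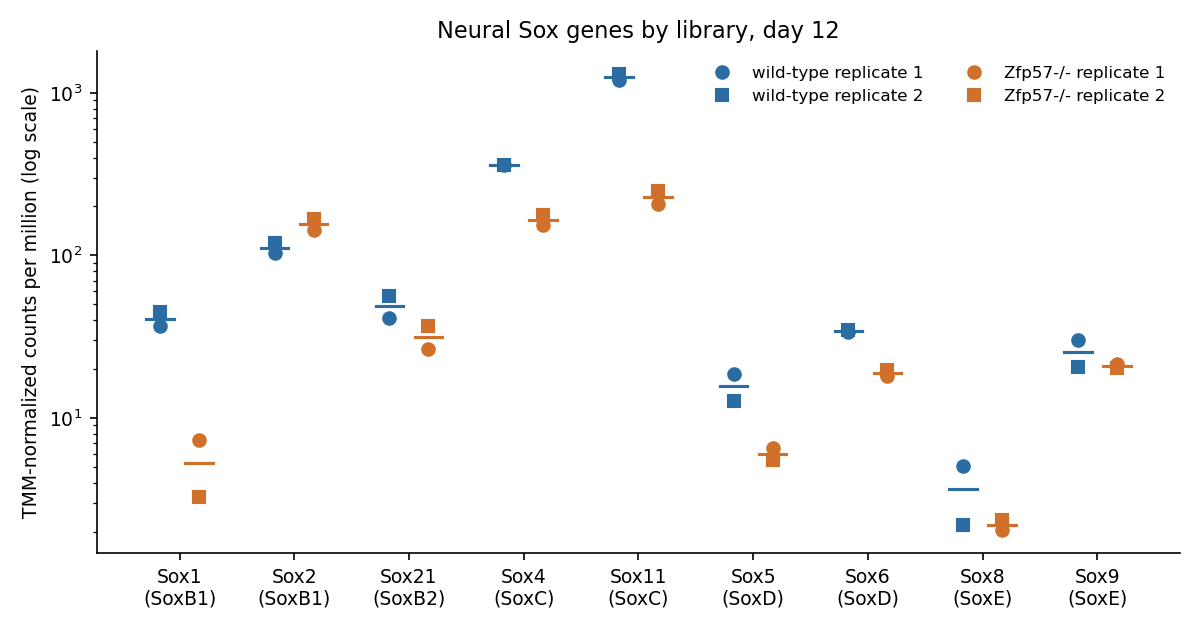
CPM (log axis) of each neural Sox gene in each library, with the Sox group under the symbol; circles are replicate 1, squares replicate 2 and bars the mean of 2 replicates. *Sox11* falls from 1200 CPM and more in wild-type to below 249 CPM in *Zfp57*-/- cells, *Sox1* falls below 8 CPM, and *Sox2* lies higher in both mutant libraries.

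*Sox1* (ENSMUSG00000096014.1, GRCm38 chr8:12395295-12400126, plus strand, a single exon) encodes the SoxB1 factor that among these genes is the most restricted to neuroectoderm. Its counts were 297 and 468 in wild-type against 68 and 32 in *Zfp57*-/- libraries, or 36.8 and 44.7 against 7.30 and 3.27 CPM. Both mutant libraries lay well below both wild-type ones. The log2 fold change was -2.95 (SE 0.35, n = 2 per genotype, adjusted p = 0.000234), the largest decrease of the 9 genes in this fit. Without *Zfp57*-/- replicate 2 it was -2.47 and that of *Sox11* was -2.58, so the order of the pair rests on that library. The decrease of *Sox1* passed under all alternatives run, with log2 fold changes from -3.63 to -2.47. The exon shares 86 of its 4832 bases with *Gm25239* on the same strand, and fragments that overlap both genes are counted for neither by featureCounts' default.

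*Sox2* (ENSMUSG00000074637.7, chr3:34650405-34652461, plus strand, a single exon) is the SoxB1 factor shared by pluripotent cells and neural progenitors. Its counts were 836 and 1245 in wild-type against 1343 and 1643 in mutant libraries, or 103.5 and 118.9 against 144 and 168 CPM. Every mutant library was above every wild-type library, but the log2 fold change of 0.49 (95% interval 0.06 to 0.92, SE 0.19) did not pass the adjustment (adjusted p = 0.0881). It was 0.37 without wild-type replicate 1 and 0.59 without wild-type replicate 2. Without *Zfp57*-/- replicate 1 it was 0.60, and without *Zfp57*-/- replicate 2 it was 0.38. With *Actb* as the scale in place of TMM, the sign turned to -0.17 (adjusted p = 0.862). *Actb* itself had 14634 and 37665 counts in wild-type against 35070 and 39257 in mutant libraries, or 1812 and 3596 against 3764 and 4013 CPM. The median of all genes shifted by -0.67 with this scale, so that relative to that median *Sox2* stood at 0.51. Its partner in pluripotent cells, *Pou5f1*, had 1 and 6 counts in wild-type against 2747 and 2286 in mutant libraries.

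The 250 bases before the RefSeq start of *Sox2* (GRCm38.p6, chr3:34649745-34649994, plus strand) are shown because ZFP57 recognises a methylated hexamer, TGCCGC or its variant GGCCGC. The RefSeq start lies upstream of the gene start given above, chr3:34650405. Matches to either form on either strand are in capitals. The window holds TGCCGC 1 time, on the opposite strand as GCGGCA, 121 bases before the start, and GGCCGC 2 times, 43 bases before the start and, on the opposite strand as GCGGCC, 192 bases before it. Of all 32851 RefSeq windows of this length, 8.68% hold TGCCGC and 16.1% hold GGCCGC on either strand.
Sox2: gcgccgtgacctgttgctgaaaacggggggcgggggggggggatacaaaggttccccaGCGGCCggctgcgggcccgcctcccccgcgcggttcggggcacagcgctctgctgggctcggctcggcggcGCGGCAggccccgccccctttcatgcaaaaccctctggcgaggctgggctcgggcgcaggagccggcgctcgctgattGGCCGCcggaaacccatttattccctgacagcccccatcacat
The window had 72.0% G and C and 27 CpG dinucleotides, against medians of 52.4% and 6 over all windows. A match is a description of the letters, and binding or methylation there was not analysed here.

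*Sox21* (ENSMUSG00000061517.8, chr14:118233232-118237030, minus strand, a single exon), the SoxB2 factor that counteracts SoxB1 activity, had 332 and 591 counts in wild-type against 249 and 358 in *Zfp57*-/- libraries. In CPM these were 41.1 and 56.4 against 26.7 and 36.6, so the groups did not overlap, with a narrow gap. The log2 fold change was -0.62 (95% interval -1.16 to -0.09, SE 0.24, adjusted p = 0.0809) and did not pass the threshold. It passed without the filter on low counts (adjusted p = 0.0317). With single libraries left out in turn, it ran from -0.86 to -0.38.

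The 2 SoxC genes, which act in newly formed neurons, were the most abundant Sox transcripts of wild-type cells and both fell. *Sox11* (ENSMUSG00000063632.6, chr12:27334264-27342574, minus strand, a single exon) had 9689 and 13749 counts in wild-type against 1941 and 2433 in mutant libraries, or 1200 and 1313 against 208 and 249 CPM. *Sox4* (ENSMUSG00000076431.4, chr13:28948919-28953713, minus strand, a single exon) had 2915 and 3746 counts against 1434 and 1744, or 361 and 358 against 154 and 178 CPM. No mutant library reached a wild-type library for either gene. The log2 fold change of *Sox11* was -2.46 (SE 0.21, adjusted p = 2.78e-05), a 5.50-fold decrease that passed under all alternatives run. That of *Sox4* was -1.11 (SE 0.19, adjusted p = 0.00207), a 2.16-fold decrease that passed under all alternatives but 1, the fit without *Zfp57*-/- replicate 1 (adjusted p = 0.0862).

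The windows before the RefSeq starts of *Sox4* (GRCm38.p6, chr13:28953700-28953949, minus strand) and *Sox11* (chr12:27342719-27342968, minus strand) are shown because these genes fell together. Each holds the E-box CAGCTG, a palindrome that proneural bHLH factors can bind, in capitals, 211 and 210 bases before the start. The E-box was found in 4271 of all 32851 windows.
Sox4: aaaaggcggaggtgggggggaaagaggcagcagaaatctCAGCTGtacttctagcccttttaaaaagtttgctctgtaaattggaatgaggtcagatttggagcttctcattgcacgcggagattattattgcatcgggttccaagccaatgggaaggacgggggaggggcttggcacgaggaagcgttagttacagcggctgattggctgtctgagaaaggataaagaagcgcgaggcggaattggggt
Sox11: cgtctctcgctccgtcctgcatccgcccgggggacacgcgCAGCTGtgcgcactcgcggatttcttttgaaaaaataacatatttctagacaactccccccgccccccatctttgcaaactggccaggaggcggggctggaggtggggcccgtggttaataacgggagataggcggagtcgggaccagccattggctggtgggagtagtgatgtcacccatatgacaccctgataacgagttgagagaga
Neither window holds a form of the ZFP57 hexamer or the Sox core CATTGT on either strand. The core was found in 10.7% of all windows. Among the 8 members with an entry (13 windows in all), the E-box also stood in 1 of the *Sox6* windows, and the Sox core stood in the *Sox5* window and in 2 of the *Sox6* windows. No E-box stood in the windows of *Sox1* and *Sox5*, which were also lower. *Sox9* had no entry. Binding at these matches was not analysed here.

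The SoxD genes *Sox5* and *Sox6*, whose products pair with each other and act beside SoxE proteins, were also lower, and the third SoxD gene, *Sox13*, was not called (values are given with the other Sox genes). *Sox6* (ENSMUSG00000051910.13, chr7:115470872-116038796, minus strand, 25 exon blocks) had 274 and 362 counts in wild-type against 170 and 192 in mutant libraries, or 33.9 and 34.6 against 18.2 and 19.6 CPM. *Sox5* (ENSMUSG00000041540.16, chr6:143828425-144781977, minus strand, 25 exon blocks) had 150 and 133 counts against 61 and 54, or 18.6 and 12.7 against 6.55 and 5.52 CPM. The libraries of the genotypes were apart for both genes, and the wild-type replicates of *Sox5* were the more widely spaced. The log2 fold changes were -1.37 for *Sox5* (SE 0.32, adjusted p = 0.0108) and -0.85 for *Sox6* (SE 0.21, adjusted p = 0.0146). Their exonic lengths were 14376 and 14832 bases, the longest of the 9, and with a correction for gene length they no longer passed, at -0.79 (adjusted p = 0.0636) and -0.28 (adjusted p = 0.345). Without *Zfp57*-/- replicate 1 the adjusted p was 0.0529 for *Sox5* and 0.227 for *Sox6*, and without replicate 2 it was 0.112 and 0.152.

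The SoxE genes showed no call. *Sox9* (ENSMUSG00000000567.5, chr11:112782224-112787760, plus strand, 3 exon blocks), which acts in neural stem cells, astrocytes and cartilage, had 243 and 217 counts in wild-type against 200 and 198 in mutant libraries, or 30.1 and 20.7 against 21.5 and 20.2 CPM. *Sox8* (ENSMUSG00000024176.10, chr17:25565892-25570686, minus strand, 3 exon blocks), which acts beside it in glia, had 41 and 23 counts against 19 and 23. For both, the 2 genotypes overlapped. The log2 fold change of *Sox9* was -0.28 (95% interval -0.84 to 0.27, adjusted p = 0.440) and that of *Sox8* -0.71 (95% interval -1.99 to 0.56, adjusted p = 0.390), and at this depth the interval of *Sox8* covers both a clear decrease and an increase. Without wild-type replicate 2, the lower of the wild-type pair in both genes, the log2 fold change was -0.53 for *Sox9* and -1.21 for *Sox8*. Without wild-type replicate 1 it was -0.02 for *Sox9* and -0.03 for *Sox8*, so the size of both decreases rests on wild-type replicate 1.

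Per kilobase of exon, the order of the genes changed between the genotypes. In wild-type cells *Sox11* led with 151 ± 9.59 CPM per kb (SD, n = 2), followed by *Sox4* with 74.9 ± 0.50 and *Sox2* with 54.1 ± 5.27. In *Zfp57*-/- cells *Sox2* led with 75.9 ± 8.18 CPM per kb, followed by *Sox4* with 34.6 ± 3.59 and *Sox11* with 27.5 ± 3.43. These 3 neighbours in the order did not overlap between libraries of a genotype. The other levels in wild-type cells were 12.8 ± 2.85 for *Sox21*, 8.43 ± 1.16 for *Sox1*, 6.14 ± 1.6 for *Sox9*, 2.31 ± 0.03 for *Sox6*, 1.17 ± 0.65 for *Sox8* and 1.09 ± 0.29 for *Sox5*. In mutant cells they were 8.33 ± 1.84 for *Sox21*, 5.04 ± 0.21 for *Sox9*, 1.28 ± 0.07 for *Sox6*, 1.09 ± 0.59 for *Sox1*, 0.70 ± 0.07 for *Sox8* and 0.42 ± 0.05 for *Sox5*. *Sox8* and *Sox5* overlapped in wild-type cells, and *Sox1* overlapped with *Sox6* and with *Sox8* in mutant cells, so these neighbours do not differ beyond their spread.

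As a share of the summed CPM per kb of the 9 genes, *Sox2* made up 16.7% and 17.9% in wild-type and 48.9% and 49.1% in *Zfp57*-/- libraries. *Sox11* went the other way, from 48.0% and 48.8% to 17.5% and 18.0%. The share of *Sox4* stayed closer, at 25.0% and 23.1% against 22.4% and 22.3%. The sum itself was 301 and 323 CPM per kb in wild-type and 143 and 166 in mutant libraries.

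Ratios of related genes within a library do not depend on library scaling. The ratio of *Sox1* to *Sox2*, the SoxB1 pair, was -1.49 and -1.41 on the log2 scale in wild-type and -4.29 and -5.66 in mutant libraries. The ratio of *Sox21* to *Sox2* was -1.33 and -1.07 against -2.43 and -2.20. Both fell relative to *Sox2*, without overlap of the genotypes. The ratio of *Sox4* to *Sox11* was -1.73 and -1.88 in wild-type and -0.44 and -0.48 in mutant libraries, a difference of 1.35, and per kilobase *Sox4* passed from 0.521 and 0.472 times *Sox11* to 1.28 and 1.24 times. The ratio of *Sox5* to *Sox6* was -0.87 and -1.44 against -1.47 and -1.82, with the genotypes just apart, and that of *Sox8* to *Sox9* overlapped. The exact two-sided permutation test over 2 against 2 libraries cannot go below p = 0.333, which it gave for the first 4 ratios, and it gave 0.667 for the last.

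**Figure D2:**
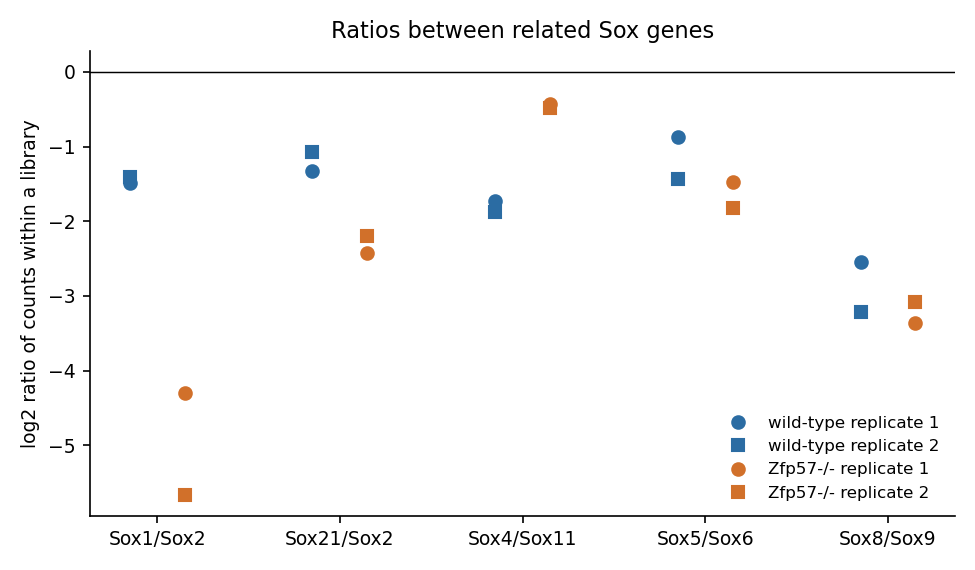
Log2 ratio of counts (0.5 added to each) between pairs of neural Sox genes within each library; circles are replicate 1 and squares replicate 2. *Sox1* relative to *Sox2* drops from about -1.45 to -4.98 on average, *Sox4* relative to *Sox11* rises from -1.80 to -0.46, and *Sox8* relative to *Sox9* overlaps.

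Of the 11 other Sox genes, 9 could be tested, and 3 were lower, 1 was higher and 5 did not pass, with a median log2 fold change of -0.42. *Sox12*, the third SoxC gene, had 370 and 574 counts in wild-type against 202 and 255 in mutant libraries (log2 fold change -1.08, SE 0.21, adjusted p = 0.00492). *Sox3*, the third SoxB1 gene, had 65 and 83 counts against 37 and 16 (-1.51, SE 0.47, adjusted p = 0.0398). Every SoxC gene therefore passed as lower, and of the SoxB1 genes *Sox1* and *Sox3* did and *Sox2* did not. *Sox7*, a SoxF gene of endoderm and vessels, fell from 116 and 157 counts to 71 and 71 (-0.98, SE 0.28, adjusted p = 0.0268). *Sox15*, a SoxG gene expressed in embryonic stem cells, had 3 and 1 counts in wild-type against 42 and 54 in mutant libraries, a ratio of 23.3 with a counting interval of 8.81 to 87.3 (adjusted p = 0.00174). The remaining tested genes were the SoxD gene *Sox13* (-0.42, adjusted p = 0.142), the endoderm gene *Sox17* (0.57, adjusted p = 0.182), *Sox30*, *Sox18* and the neural crest gene *Sox10*, which had 2 to 12 counts per library (adjusted p = 0.958). *Sry* had no count, and *Sox14* had 2 counts in all.

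**Figure D3:**
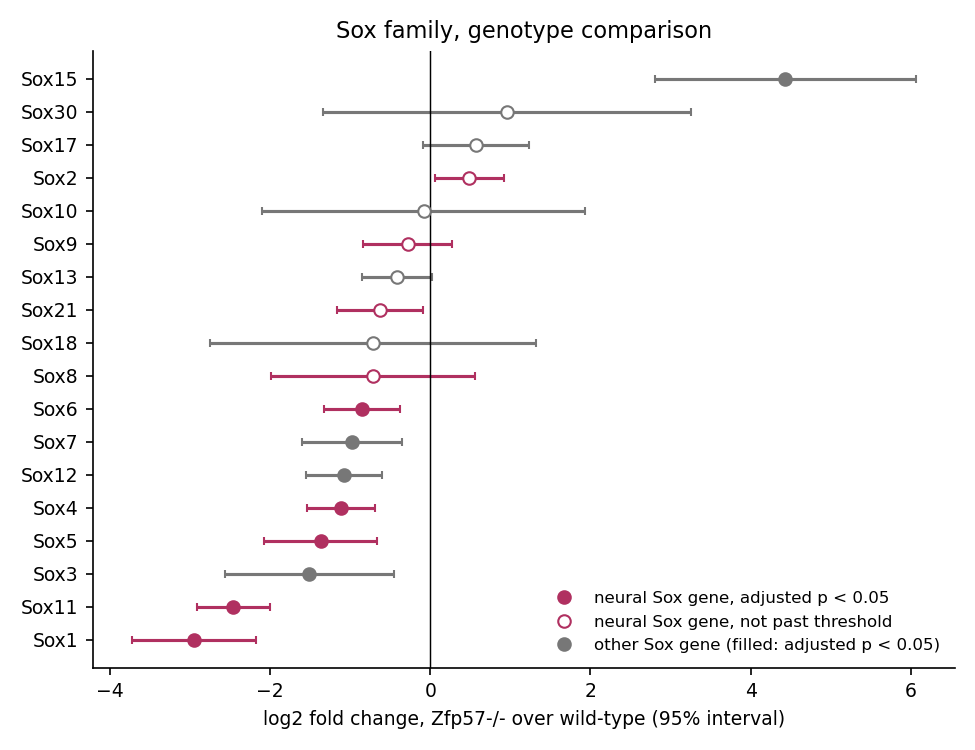
Log2 fold change of *Zfp57*-/- over wild-type cells with its 95% interval for the 18 Sox genes tested, ordered by size; neural Sox genes are in red, other Sox genes in grey, and filled points passed an adjusted p of 0.05. *Sox1* at -2.95 and *Sox11* at -2.46 lie lowest, *Sox2* at 0.49 is open, and *Sox15* at 4.43 is the single filled point above 0.

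Noncoding transcripts at Sox loci whose symbols end in ot or os were counted apart from the genes. *Sox2ot*, within whose span *Sox2* lies on the same strand without a shared exon, had 211 and 101 counts in wild-type against 40 and 41 in mutant libraries (log2 fold change -2.06, SE 0.45, adjusted p = 0.00827), while the CPM of *Sox2* was higher in both mutant libraries. *Sox1ot*, which spans *Sox1* in the same way, had 9 and 16 counts against 4 and 0 (adjusted p = 0.107). The antisense transcripts *Sox5os1* to *Sox5os5* had no count and *Sox6os* had 1 count in all, and the counting used strand.

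Partner and lineage genes of the Sox factors were read from fixed lists. Of 6 POU partners, *Pou3f2* (-5.74, adjusted p = 2.79e-06), *Pou3f3* (-4.63) and *Pou3f4* (-4.89), neural partners of SoxB1 and SoxC factors, were lower, *Pou5f1* was higher (9.41, adjusted p = 1.71e-06), and *Pou3f1* and *Pou2f1* (0.07, adjusted p = 0.800) did not pass. Of 10 neural progenitor genes, 9 were lower, from the Notch effector *Hes5* (-5.16, adjusted p = 4.62e-06) on, and the intermediate filament gene *Vim* did not pass (-0.25, adjusted p = 0.382). Of 8 pan-neuronal genes, 7 were lower, from the microtubule-binding *Dcx* (-6.42, adjusted p = 1.71e-06) on, and *Stmn2* did not pass (-0.56, adjusted p = 0.144). Their medians were -1.37 and -4.16, against -0.85 for the neural Sox genes.

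The glial list moved in both directions. *Nfia*, *Slc1a3*, *Aqp4* and *Mbp* were lower, *Aldh1l1*, *Olig1* and *Olig2* were higher, and *Nfib*, *Gfap*, *S100b*, *Pdgfra* and *Cspg4* did not pass, so that 5 of the 12 genes were not called. *Nfia*, a gliogenic factor that acts with *Sox9*, had the smallest adjusted p (-1.90, adjusted p = 0.000614), and *S100b* the largest (-0.22, adjusted p = 0.918). *Olig1* had 14 and 18 counts in wild-type against 69 and 82 in mutant libraries, and *Gfap* had at most 14 counts in any library. Of 7 cartilage genes, many of them known targets of *Sox9* with *Sox5* and *Sox6*, *Matn1* was higher (3.23, adjusted p = 0.0144) on 2 and 2 against 21 and 20 counts, and 6 did not pass. *Col2a1*, the best known of these targets, had 2241 and 2098 counts against 2798 and 3272 (0.41, adjusted p = 0.182), and *Col9a1* had the largest adjusted p (0.05, adjusted p = 0.940).

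**Figure D4:**
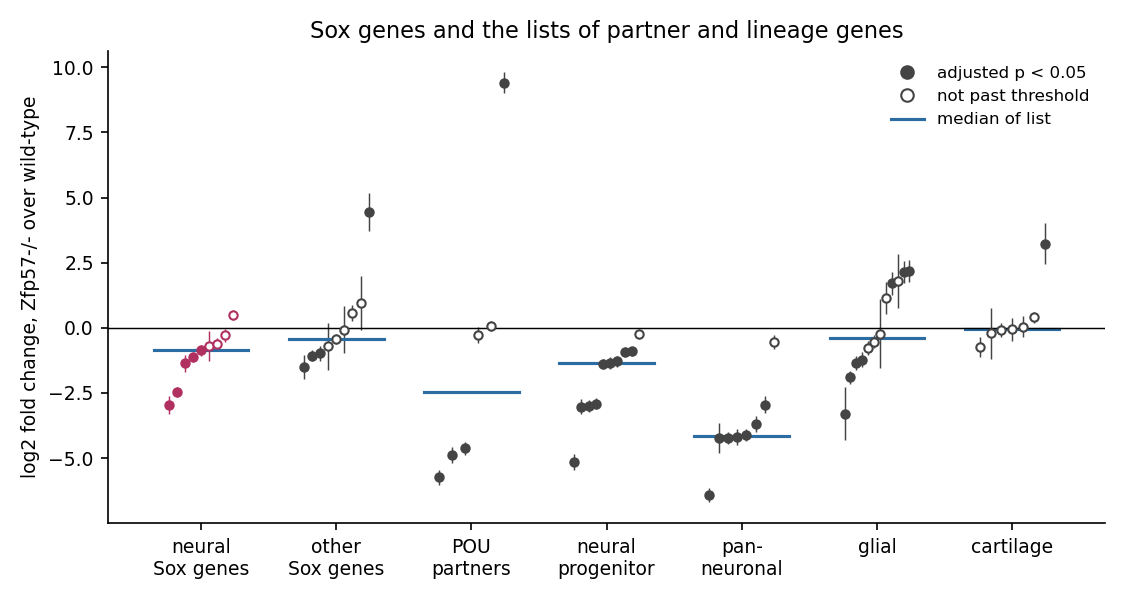
Log2 fold change of *Zfp57*-/- over wild-type cells with its standard error for each tested gene of the neural Sox genes (red) and of 6 lists; filled points passed an adjusted p of 0.05 and blue lines are medians. The neural Sox median of -0.85 lies between the pan-neuronal median of -4.16 and the cartilage median of -0.06.

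Markers of other cells were measured in the same libraries. Of 7 endoderm markers, which include *Sox17* and *Sox7*, *Sox7* was lower and 6 did not pass, with a summed CPM of 338 and 504 in wild-type and 453 and 617 in mutant libraries. Of 5 neural crest markers, *Foxd3* was higher, *Tfap2a*, *Tfap2b* and *Ngfr* were lower and *Sox10* did not pass, with sums of 103 and 154 against 27.3 and 30.2 CPM. Of 5 endothelial markers, *Pecam1* and *Tek* were higher, *Kdr* was lower, and *Cdh5* and *Sox18* did not pass (90.9 and 112 against 109 and 131 CPM). Of 5 mesoderm markers, *T* and *Mixl1* were higher, *Twist1* and *Prrx1* were lower and *Tbx6* did not pass (58.6 and 84.7 against 134 and 151 CPM). The parts of these cells in the Sox results were not tested.

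By the distance between log2 CPM deviations over the 4 libraries, the pattern of *Sox11* was nearest to *Sema6c* (0.13) and *Sarm1* (0.14), and that of *Sox1* to *Gdap1l1* (0.14) and *Negr1* (0.28). The nearest genes of *Sox4* were *Plagl1* (0.02) and *Vgll4* (0.05), of *Sox5* *Rimklb* (0.07) and *Atl1* (0.12), and of *Sox6* *Tmem132a* (0.02) and *Usf3* (0.04). Those of *Sox2* were *Sec31a* (0.03) and *Twnk* (0.03), of *Sox21* *Zadh2* (0.04) and *Arxes1* (0.06), of *Sox9* *Rsrc2* (0.03) and *Htt* (0.04), and of *Sox8* *Glcci1* (0.09) and *Slc5a3* (0.11). With 4 libraries such likeness is common: 420 of 11735 genes lay within 0.2 of *Sox2* and 106 of *Sox4*, but 11 of *Sox11* and 1 of *Sox1*.

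Reads that cover a SNP between JF1 and B6 gave the level of each parental allele. The allelic ratio is JF1/(JF1 + B6), so 1 is maternal and 0 paternal. *Sox11* had 0 allelic reads in all 4 libraries, so its alleles could not be compared. *Sox6* was the single gene of the 8 with allelic reads that was read from 1 allele in wild-type cells. It had 98 and 130 JF1 reads and 0 and 0 B6 reads there, and 3 reads of these 228 would be a share of 0.0132. In *Zfp57*-/- cells it had 21 and 33 JF1 reads and 35 and 33 B6 reads, and the ratio was 0.438 ± 0.088 (SD, n = 2). The genotype-by-allele contrast passed (adjusted p = 6.88e-29, edgeR), as it did for 12.3% of 13435 genes. On the CPM scale, B6 *Sox6* reads were at least 10.8-fold higher in mutant than in wild-type cells, set against a floor of 3 counts per library. JF1 *Sox6* reads were 4.36-fold lower, and the sum of both alleles was 1.92-fold lower. Whether the B6 copy of *Sox6* was present in wild-type cells was not tested.

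Of the 15 genes nearest to *Sox6* that had 10 or more allelic reads per library, over 4602 kb, 5 had a ratio above 0.9 in wild-type and 0 in *Zfp57*-/- cells, and the median ratio was 0.704 against 0.517. The ratio of *Sox6* thus moved together with that of several neighbours. The median of chromosome 7 was 0.515 in wild-type and 0.487 in mutant cells.

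*Sox9* was the other gene whose contrast passed (log2 1.05, SE 0.37, adjusted p = 0.0366). Its wild-type libraries held 53 and 53 JF1 reads and 59 and 57 B6 reads, and its mutant libraries 59 and 64 JF1 reads and 30 and 35 B6 reads. JF1 reads ran from 53 to 64, while B6 reads were lower in both mutant ones. The ratio was 0.478 ± 0.006 in wild-type and 0.655 ± 0.012 in mutant cells, and the medians of the 15 nearest genes were 0.457 and 0.486. Within mutant cells the lean to JF1 passed (log2 0.92, adjusted p = 0.00507, edgeR). Within wild-type cells no lean passed (log2 -0.13, adjusted p = 0.818). The contrast did not pass with DESeq2 (adjusted p = 0.230) or without any single library (adjusted p 0.104 without *Zfp57*-/- replicate 1, 0.0594 without replicate 2, 0.270 without wild-type replicate 1 and 0.198 without replicate 2).

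Both alleles of the other measured genes were read in both genotypes. *Sox1* leaned to B6 in every library, with JF1 shares of 0.364 and 0.414 on 132 and 232 reads in wild-type and 0.325 and 0.267 on 40 and 15 reads in mutant cells. The lean passed within each genotype (adjusted p = 0.0224 and 0.0485), and its difference between genotypes did not (adjusted p = 0.672). So the loss of *Sox1* reads was seen on both alleles, from 7.55 to 0.90 CPM on JF1 and from 11.7 to 2.01 CPM on B6. The same held for *Sox4*, at 36.3 against 21.8 CPM on JF1 and 34.5 against 16.3 CPM on B6. Its ratio was 0.513 ± 0.022 in wild-type and 0.572 ± 0.014 in mutant cells, with a lean to JF1 that passed in the mutant (adjusted p = 0.0106) and a contrast that did not (0.35, SE 0.17, adjusted p = 0.227).

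*Sox2* had 139 and 183 JF1 and 101 and 163 B6 reads in wild-type, and 195 and 220 JF1 and 199 and 205 B6 reads in mutant libraries. Its ratios were 0.554 ± 0.036 and 0.506 ± 0.016 (contrast adjusted p = 0.561). *Sox21* stood at 0.487 ± 0.057 and 0.487 ± 0.059 (adjusted p = 0.963). *Sox5* had 30 and 12 allelic reads per genotype and *Sox8* 19 and 14, too few for a ratio to be read closely. For a single library of 4 *Sox5* reads, the 95% Wilson interval of the ratio ran from 0.150 to 0.850, and such intervals cover counting error only.

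**Figure D5:**
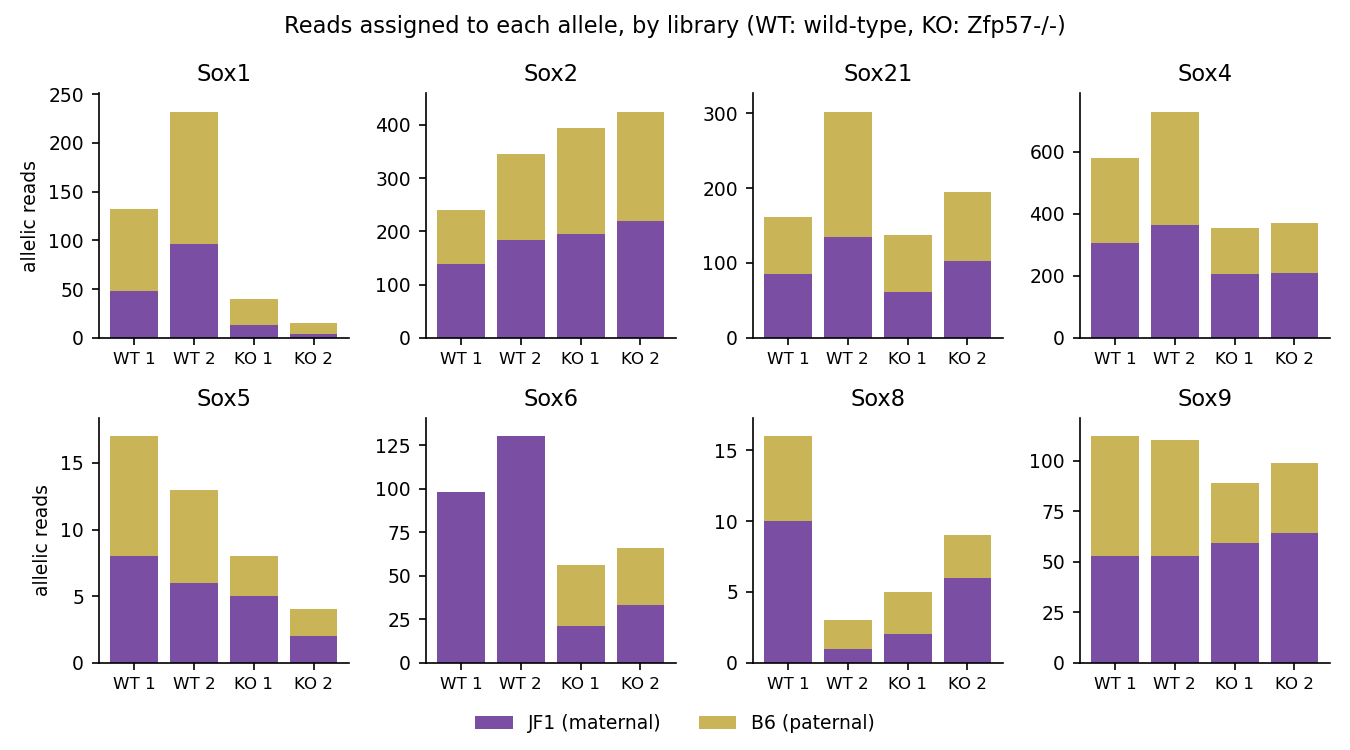
Allelic reads of 8 neural Sox genes in each library (vertical scales differ between panels), stacked as JF1 below and B6 above. *Sox6* has no B6 read in wild-type libraries and 35 and 33 in *Zfp57*-/- libraries, *Sox9* has fewer B6 reads in the mutant, and *Sox11* is left out because it had 0 allelic reads.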

How the data were processed

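RNA-seq of 2 wild-type and 2 *Zfp57*-/- cultures was analysed from the deposited gene tables. Per the submitters' processing notes and the methods, the authors used Trimmomatic 0.36 for trimming and STAR 2.5.4a for alignment to GRCm38, kept unique alignments and counted fragments per GENCODE vM20 gene by strand with featureCounts (Subread 1.6.0). For the allelic table, the authors aligned to a genome masked at JF1/B6 SNPs and split the reads with SNPsplit. Both deposited tables hold raw counts, 7663520 to 10337082 per library in bulk, of which the allelic counts were 36.1 to 37.0%.

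Genes with more than 8 counts over the 4 libraries were compared with edgeR 4.0.16 (robust quasi-likelihood test, TMM, Benjamini-Hochberg adjustment over all genes, threshold 0.05) in R 4.3.3. The allelic test used the 8 allele columns, with library terms and 1 allele term for each genotype, on autosomal genes with at least 20 allelic reads. DESeq2 1.42.0 was an alternative, at default settings in the genotype comparison and, in the allelic test, with the same terms and TMM-scaled library sizes. Others were other scalings, filters, a gene-length offset, a replicate block and each library left out in turn. In simulated data 93.5% of 200 genes changed by 2 on the log2 scale were recovered in the genotype comparison, with 13 false calls among 19454 genes. In the allelic contrast 93% were recovered, with 5 false calls among 13197. The changed genes were drawn from those with a mean of at least 50 counts, or of at least 20 reads per allele column. *Sox8* lay below the first limit, and *Sox5* and *Sox8* below the second. Smaller changes were not simulated.

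The 9 genes, the lists and the tests were chosen with earlier results of these data known. Named from each list are the genes with the smallest and largest adjusted p and any count of 5 or fewer, and for each Sox gene the 2 genes with a mean of at least 50 counts at the smallest Euclidean distance of log2 CPM deviations. The counts of *Olig1*, *Gfap* and *Col2a1* are given beyond this rule and were chosen after their values were seen. Upstream windows are from RefSeq, GRCm38.p6, and were matched by symbol for 8 of 9 genes. 1 gene of the glial list is not reported here and was left out of its counts.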

Additional observations from a re-analysis of the deposited data

Results flagged for a closer look

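For 2 of the 8 neural Sox genes with allelic reads, the effect of allele differed between the genotypes by the test of that difference. Over all genes, the same contrast passed for 12.3% of 13435. The allelic ratio of *Sox6* changed by -0.56 from wild-type to *Zfp57*-/- cells (adjusted p = 6.88e-29, edgeR), with 0 B6 reads of 228 in wild-type and 68 of 122 in mutant cells. Several neighbours moved with it: of its 15 nearest genes, 5 had a ratio above 0.9 in wild-type and 0 in mutant cells. The ratio of *Sox9* rose by 0.177 (adjusted p = 0.0366), with 116 B6 reads of 222 in wild-type and 65 of 188 in mutant cells, and its call rests on all 4 libraries being present.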

How the results depend on the processing

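Of 108 alternative values of the 9 log2 fold changes, 93 kept their direction and side of the threshold, 7 were no longer past it, 7 came past it and 1 reversed, *Sox2* at -0.17 with *Actb* as the scale. The count of lower Sox genes was 5 and became 3 with the gene-length correction, and 2 to 7 without single libraries, where 0 to 1 were higher. Leaving out a library leaves 1 in a genotype, which is assumed to vary like the others. Over all genes, 5522 were called, and 9947 without wild-type replicate 2, 8051 without wild-type replicate 1, 2831 without *Zfp57*-/- replicate 1, 2985 without replicate 2 and 3480 with *Actb* as the scale, where 486 were higher and 2994 lower against 2607 and 2915. The cause of these shifts was not tested.

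The replicate numbers are shared by the genotypes. The correlation of the deviations of libraries with the same number was 0.15 (11736 genes), and with 2 pairs and no stated pairing the numbers were not taken as pairs. The fit with the replicate block gave 6984 calls, *Sox21* then passed (-0.62, adjusted p = 0.0183), and the *Sox9* allelic contrast stayed past the threshold; no other call among the 9 genes changed.

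Among the other Sox genes, 2 were higher without a filter and with the replicate block, 1 to 2 without single libraries, and 1 to 4 were lower there. POU partners gave 2 higher genes with the length correction. Glial genes gave 0 higher ones with *Actb* as the scale, and without single libraries 2 to 6 lower and 0 to 3 higher. Cartilage genes gave 0 higher with *Actb* as the scale, 2 with the length correction, and without single libraries 0 to 2 higher and 0 to 1 lower.

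Of 54 alternative values of the allelic contrasts, 44 kept direction and side. The number of genes past the threshold was 2, and 1, *Sox6*, with DESeq2 and without any single library. Signs turned without single libraries for *Sox21* (-0.21 to 0.29) and *Sox8* (-0.96 to 1.24), and for *Sox8* with the replicate block (-0.0055), none past the threshold. *Sox5* and *Sox8* are limited by depth.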
